A study of Mus musculus with 16 samples.

Results

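The cortical transcriptomes of mice given the construct ATG-GGN100dCT were compared directly with those of mice given ATG-GGC100, 4 libraries against 4 out of the 16 in the series. Both names carry the start codon ATG and 100 repeat units, written with the glycine codon GGC in ATG-GGC100 and as GGN, any glycine codon, in ATG-GGN100dCT. The remaining groups, used here as reference levels, were ATG-GGC11 with 11 GGC units and TAG-GGC100, named for the stop codon TAG, with 4 libraries each. All 16 libraries were made from cortex after delivery of the construct by adeno-associated virus, AAV, a viral vehicle for genes. The promoter and serotype of the virus, the strain, age and sex of the mice, the time after injection and what dCT stands for are not given in the sources used here. Codon use, dCT and any difference in construct level therefore cannot be told apart. Of 55359 mouse genes in the deposited table, 17737 passed the filter on low counts and were tested.

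Polyglycine is made when an expanded GGC repeat is translated, and in neuronal intranuclear inclusion disease it gathers in inclusions in cell nuclei. A mixed-codon GGN repeat encodes the same chain of glycines without an uninterrupted GGC repeat in its RNA. Microglia, the resident macrophages of the brain, respond to tissue damage with a set of disease-associated genes that depends in part on the receptor Trem2 and its adaptor Tyrobp, while astrocytes respond with Gfap and other reactive genes.

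The library totals of the series ran from 12838756 to 19131210 counts. Each construct's own sequence was counted beside the mouse genes. The ATG-GGN100dCT row held 22.4 ± 10.95 (SD, n = 4) in the libraries of that construct, in CPM, which scale counts by library size, from 8.65 in replicate 2 to 35.0, and 0.0472 ± 0.0615 CPM in ATG-GGC100. The ATG-GGC100 row held 1.75 ± 0.564 CPM in its own libraries and 0 in every ATG-GGN100dCT library. The same ATG-GGC100 libraries held 1.78 ± 0.643 CPM on the ATG-GGC11 row, as much as on their own. The ATG-GGN100dCT row is 1063 bases long and the ATG-GGC100 row 1340. The rows share sequence and how shared reads were counted was not given, so the levels of the constructs cannot be compared from them. ATG-GGN100dCT replicate 3 stood apart from the other libraries of its group. It was the lowest of them in the pan-myeloid, myelin and red blood cell lists and the highest in the excitatory neuron gene Slc17a7, at 372 FPKM (counts scaled to exonic length and library total) against 184 to 282. The mean level of the excitatory neuron list in replicate 3 was -0.23 log2 units relative to ATG-GGC11, within its group's -0.25 to -0.14. The summed level of that list was the highest of the group there, at 6558 CPM. Because replicate 3 stood apart, the lists were also counted without it. Cortical identity was as labelled: Slc17a7, Tbr1, Neurod6 and Rbfox3 were expressed in every library. Striatal genes varied widely within both groups, with Drd1 from 4.81 to 14.2 FPKM in ATG-GGN100dCT and from 4.48 to 13.4 FPKM in ATG-GGC100.

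Many microglial genes were lower in ATG-GGN100dCT than in ATG-GGC100. The edgeR test called 363 genes, 2.05% of those tested, of which 211 (1.19%) were lower and 152 (0.857%) higher in ATG-GGN100dCT. Of these calls 97 were on a gene list and 266 on none. No member of the microglial, myeloid, complement, interferon, antigen presentation, chemokine or lysosome lists was among the higher genes. The disease-associated list gave 13 lower of 26 members tested, the homeostatic list 8 of 16, the pan-myeloid list 9 of 14 and the lysosome list 15 of 26. Without ATG-GGN100dCT replicate 3 these counts were 11, 6, 8 and 9. The disease-associated count was 9 without ATG-GGC100 replicate 3, and the pan-myeloid count was 5 and the lysosome count 7 when only the 8 libraries compared were fitted. The number of calls over all genes rested on single libraries. It was 204 without ATG-GGC100 replicate 1, 165 without ATG-GGC100 replicate 3, and 208, 688 and 205 without ATG-GGN100dCT replicates 1, 2 and 3.

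**Figure D1:**
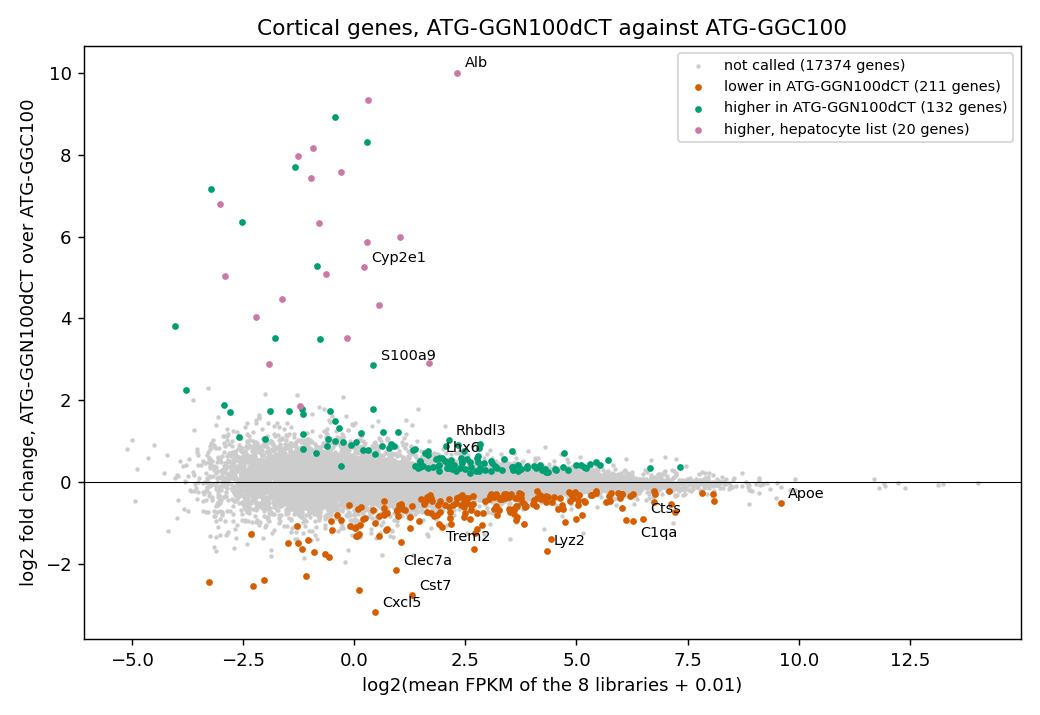
Each point is a gene tested, with the log2 fold change of ATG-GGN100dCT over ATG-GGC100 against the log2 mean FPKM of the 8 libraries plus 0.01. The 211 lower genes include Cst7, Clec7a, Lyz2 and Apoe, and the largest positive values belong to hepatocyte genes such as Alb, which are nearly absent from the ATG-GGC100 libraries.

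The steepest microglial differences were in genes of the disease-associated state. Cst7 (ENSMUSG00000068129; chromosome 2, 150412335 to 150420864 on the plus strand in the deposited table, whose build is not named there), which encodes the protease inhibitor cystatin F, stood at 0.860, 0.330, 0.120 and 1.2 FPKM in ATG-GGN100dCT replicates 1 to 4 and at 4.14, 2.91, 5.67 and 4.33 FPKM in ATG-GGC100. The groups did not overlap, and the log2 fold change was -2.77 ± 0.41 (SE; edgeR adjusted p = 0.000644). Clec7a (ENSMUSG00000079293; chromosome 6, 129438554 to 129449742, minus strand), a receptor for fungal glucans, stood at 0.640, 0.420, 0.380 and 1.40 FPKM against 2.98, 2.51, 3.45 and 3.55 FPKM. It was lower by -2.15 ± 0.34 on the log2 scale (adjusted p = 0.00199), again without overlap. The integrin gene Itgax was lower by -2.30 ± 0.38 (adjusted p = 0.00207), at 0.160 ± 0.114 against 0.765 ± 0.232 FPKM (SD, n = 4). Cst7 and Itgax passed the filter on low counts only through ATG-GGC100, the group where they are high. These genes lay between the groups at the extremes: the ATG-GGC11 and TAG-GGC100 means were 0.113 and 0.0875 FPKM for Cst7 and 0.075 and 0.140 FPKM for Clec7a. Against ATG-GGC11, Clec7a was higher in ATG-GGN100dCT by 3.12 (adjusted p = 0.00297) and in ATG-GGC100 by 5.28 (adjusted p = 1.2e-05) on the log2 scale; these values share the ATG-GGC11 libraries, against which 3.17% and 2.2% of genes tested were higher.

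Trem2 (ENSMUSG00000023992; chromosome 17, 48653429 to 48661175, plus strand), the lipid-sensing receptor of microglia, stood at 2.76, 2.57, 1.49 and 3.04 FPKM against 4.59, 4.49, 5.92 and 5.11 FPKM in ATG-GGC100. Every ATG-GGN100dCT library was below every ATG-GGC100 library (-1.03 ± 0.16, adjusted p = 0.00185). Its adaptor gene Tyrobp stood at 18.01, 19.46, 12 and 22.43 FPKM against 33.3, 34.4, 37.1 and 37.3 FPKM (-0.99 ± 0.14, adjusted p = 0.000427). Unlike Cst7 and Clec7a, both genes were at the level of the groups with low reactive genes: Trem2 averaged 2.46 FPKM in ATG-GGN100dCT, 2.395 in ATG-GGC11 and 2.21 in TAG-GGC100, and Tyrobp 17.98, 18.6 and 15.8. For Trem2 against ATG-GGC11 the log2 fold change was -0.01 ± 0.17 (adjusted p = 0.983). Apoe, the lipid carrier, went from 849 to 1000.1 FPKM in ATG-GGC100 to 546 to 706 FPKM in ATG-GGN100dCT, with no overlap (-0.52 ± 0.09, adjusted p = 0.00322). Lyz2, the lysozyme gene of macrophages, was lower by -1.68 ± 0.32 (adjusted p = 0.0179), at 9.62 ± 3.59 against 30.6 ± 3.57 FPKM. Its call was lost without ATG-GGC100 replicate 3 or without ATG-GGN100dCT replicates 1 or 3, with an adjusted p of up to 0.0606 over the alternatives. Of the 26 list members 24 had negative log2 fold changes and 16 did not overlap between the groups, against 7.94% of all genes tested, 4.38% with ATG-GGN100dCT below and 3.56% with it above. The list's median log2 fold change was -0.57, against -0.0032 over all genes. Among members that did not pass were Gpnmb, Spp1 and Axl.

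**Figure D2:**
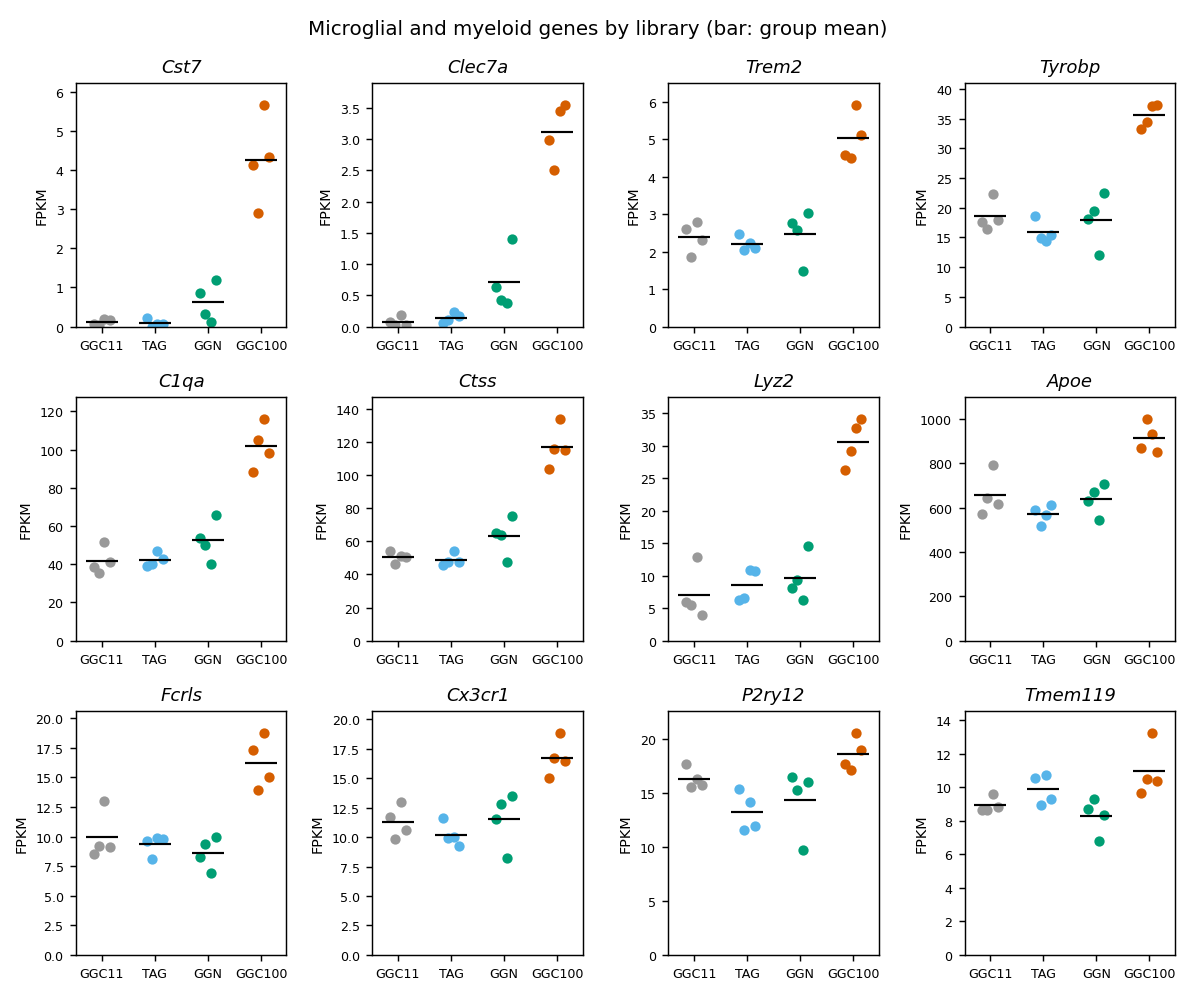
Points are single libraries and bars group means, in FPKM, for 12 microglial and myeloid genes in ATG-GGC11, TAG-GGC100, ATG-GGN100dCT (GGN) and ATG-GGC100, with replicates 1 to 4 from left to right. In all 12 genes the ATG-GGC100 libraries sit above the ATG-GGN100dCT libraries; Cst7 and Clec7a in ATG-GGN100dCT also lie above the ATG-GGC11 and TAG-GGC100 means.

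Homeostatic microglial genes were lower too, by less. Fcrls, an Fc receptor-like gene of microglia, stood at 8.24, 9.41, 6.93 and 9.93 FPKM against 17.3, 13.9, 18.7 and 15.1 FPKM in ATG-GGC100 (-0.92 ± 0.13, adjusted p = 0.000647). Csf1r, the receptor that microglia need to survive, averaged 13.2 ± 1.91 against 19.3 ± 1.56 FPKM (-0.55 ± 0.10, adjusted p = 0.00416). Neither gene overlapped between the groups. In ATG-GGN100dCT both lay near the reference groups. Fcrls averaged 8.63 FPKM there, 9.94 in ATG-GGC11 and 9.38 in TAG-GGC100, and Csf1r 13.2, 13.5 and 12.4 FPKM. Against ATG-GGC11 the homeostatic list had a median log2 fold change of -0.05 in ATG-GGN100dCT and 0.46 in ATG-GGC100, values that share the ATG-GGC11 libraries. Cx3cr1, the fractalkine receptor gene, was lower by -0.54 ± 0.12 (adjusted p = 0.0259), a call lost without ATG-GGC100 replicate 3 or ATG-GGN100dCT replicate 1. The Cx3cr1 call was also lost when only the 8 libraries compared were fitted and with a replicate block (adjusted p of up to 0.0917 over the alternatives). Tmem119 passed narrowly (-0.40 ± 0.11, adjusted p = 0.0487) and did not pass in 13 of 18 alternatives, among them the omission of ATG-GGC100 replicate 2, 3 or 4 or ATG-GGN100dCT replicate 1, 3 or 4 (adjusted p of up to 0.186). P2ry12, the purinergic receptor that steers microglial processes, stood at 16.5, 15.3, 9.73 and 16.1 FPKM against 17.7, 17.1, 20.5 and 19.01 FPKM and did not pass (-0.37 ± 0.13, adjusted p = 0.139), although its groups did not overlap. All 16 list members had negative log2 fold changes, with a median of -0.46 (-0.34 without ATG-GGN100dCT replicate 3). The 8 calls became 4 without ATG-GGC100 replicate 3 and 5 without ATG-GGN100dCT replicate 1. In bulk tissue, fewer microglia and less RNA per microglial cell cannot be told apart.

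General myeloid and lysosomal genes followed. Ctss, which encodes the macrophage protease cathepsin S, stood at 65.0, 64.0, 47.3 and 75.1 FPKM in ATG-GGN100dCT and at 104, 115, 134 and 115 FPKM in ATG-GGC100. The groups were far apart and the adjusted p was the smallest of any lower gene named here, at 7.22e-05 (-0.90 ± 0.10). Cyba, a subunit of the phagocyte NADPH oxidase, averaged 4.21 ± 0.879 against 9.29 ± 0.886 FPKM (-1.15 ± 0.16, adjusted p = 0.000322). Irf8, a transcription factor of the myeloid lineage, was lower by -0.91 ± 0.16 (adjusted p = 0.00252). The Fc receptor signalling chain gene Fcer1g was lower by -0.85 ± 0.16 (adjusted p = 0.00715). All 14 members of the pan-myeloid list had negative log2 fold changes, with a median of -0.72, and 11 did not overlap. Their mean level relative to ATG-GGC11 was 0.78 to 1.06 log2 units in the ATG-GGC100 libraries and -0.30 to 0.42 in the ATG-GGN100dCT libraries. Of the 26 lysosome genes tested, 23 were negative, with a median of -0.28. The lower ones included the protease genes Ctsd (114 ± 16.7 against 166 ± 12.2 FPKM; -0.55 ± 0.09, adjusted p = 0.00109) and Ctsh (-0.75 ± 0.14, adjusted p = 0.00612) and the membrane protein genes Cd63 (-0.72 ± 0.11, adjusted p = 0.00134), Cd68 (-0.69 ± 0.15, adjusted p = 0.0183) and Laptm5 (-0.69 ± 0.11, adjusted p = 0.00206). The Cd68 call was lost without ATG-GGC100 replicate 2 or 3 or ATG-GGN100dCT replicate 1 or 3 (adjusted p of up to 0.062 over the alternatives). The 15 lysosome calls became 7 without ATG-GGC100 replicate 3 and 9 without ATG-GGN100dCT replicate 1 or replicate 3. Several of these genes are also on the microglial lists.

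Complement genes were lower through the C1q subunits, the recognition part of the classical pathway, which microglia make. C1qa (ENSMUSG00000036887; chromosome 4, 136623228 to 136626114, minus strand) stood at 53.7, 50.1, 40.4 and 65.9 FPKM against 88.2, 105, 116 and 98.0 FPKM in ATG-GGC100, without overlap (-0.96 ± 0.13, adjusted p = 0.000538). C1qb and C1qc were lower by -0.93 ± 0.13 (adjusted p = 0.0006) and -0.81 ± 0.13 (adjusted p = 0.00173). C4b, which encodes a later component, stood at 8.93, 7.98, 9.54 and 21.0 FPKM against 20.3, 32.4, 36.1 and 34.7 FPKM; replicate 4 of ATG-GGN100dCT overlapped ATG-GGC100 replicate 1. Its call (-1.39 ± 0.29, adjusted p = 0.0293) was lost without ATG-GGC100 replicate 2, 3 or 4 or ATG-GGN100dCT replicate 1 or 3. The C4b call was also lost when only the 8 libraries compared were fitted, with an adjusted p of up to 0.146 over the alternatives. Reads of C4b can be shared with the near-identical C4a. C3, the central component, had overlapping groups at 0.555 ± 0.170 against 0.660 ± 0.189 FPKM (adjusted p = 0.758). In all 5 of 17 complement genes were lower, with a median of -0.29.

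Interferon-stimulated genes were lower in part. Of 33 tested, 4 were called lower, against 1.19% of all genes tested, and 27 had negative log2 fold changes. The median log2 fold change was -0.36, and of 13 interferon-inducible GTPase genes none passed (median -0.44). Lgals3bp, a secreted galectin ligand, stood at 6.90, 6.68, 6.10 and 7.50 FPKM against 10.4, 11.96, 13.7 and 11.4 FPKM (-0.80 ± 0.15, adjusted p = 0.00511), a call that no alternative removed. Bst2 and Ifi27, a membrane tether of viruses and an interferon-induced mitochondrial protein, passed with adjusted p = 0.0448 and 0.04. These calls were lost in 10 and 8 of 18 alternatives, each of them without ATG-GGC100 replicate 3 or 4 or ATG-GGN100dCT replicate 3. Omitting ATG-GGC100 replicate 3 or 4 or ATG-GGN100dCT replicate 3 left the list with 1 call, and omitting any other of the 8 libraries except ATG-GGN100dCT replicate 2 left 2. Without ATG-GGN100dCT replicate 3 its median was -0.15. Cxcl10, a chemokine that interferons induce, stood at 0.650, 0.990, 0.160 and 0.220 FPKM against 0.620, 0.660, 1.07 and 1.06 FPKM, with overlap (adjusted p = 0.355). Ifit3, which binds viral RNA complexes, likewise overlapped, at 7.53 ± 2.89 against 9.62 ± 1.24 FPKM (adjusted p = 0.441). The ATG-GGN100dCT libraries spread widely here, at 0.16 to 1.04 log2 units above ATG-GGC11 for the list, against 0.87 to 1.28 in ATG-GGC100.

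MHC class I genes, whose products present peptides to T cells, were lower in 6 of 14 members tested. B2m, the invariant light chain, stood at 116, 122, 85.3 and 123 FPKM against 182, 167, 203 and 191 FPKM, without overlap (-0.73 ± 0.10, adjusted p = 0.000315). Psmb9, an immunoproteasome subunit, was lower by -1.49 ± 0.30 (adjusted p = 0.0121), at 0.210 ± 0.107 against 0.595 ± 0.0733 FPKM. The heavy chain genes H2-K1 and H2-D1, which can share reads with other H2 genes, overlapped between the groups and passed with adjusted p = 0.0443 and 0.0341. The H2-K1 call was lost in 10 and the H2-D1 call in 9 of 18 alternatives. Omitting ATG-GGC100 replicate 2 or 3 left 2 of the 6 calls, and omitting ATG-GGC100 replicate 4 or ATG-GGN100dCT replicate 3 left 3 of them. All 14 members were negative, with a median of -0.52. No MHC class II gene of 7 passed, although the median was -0.92. Of 11 chemokine genes 2 were lower, the neutrophil attractant Cxcl5 (0.268 ± 0.144 against 2.46 ± 1.86 FPKM; -3.19 ± 0.57, adjusted p = 0.00636) and Cxcl16. Cxcl5 passed the filter on low counts only through ATG-GGC100, where it is high, and did not pass the test when only the 8 libraries compared were fitted (adjusted p = 0.1001). Cxcl16 passed with adjusted p = 0.0277 and lost its call in 6 of 17 alternatives.

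The promoters of genes that were lower are shown for Ctss, B2m, Bst2, C1qc and Psme1, because they hold letters of 2 motifs known from macrophages and interferon signalling. Psme1, a proteasome activator gene named after its value was seen, averaged 10.6 ± 0.559 against 13.99 ± 1.5 FPKM (-0.40 ± 0.09, adjusted p = 0.0212). Psme1 did not pass in 6 of 18 alternatives, among them the omission of ATG-GGC100 replicate 1, 2 or 3 or ATG-GGN100dCT replicate 3 or 4. The sequences are RefSeq's on GRCm38.p6, 300 bases from 250 before to 50 after the gene's start, printed 5′ to 3′ on the gene's own strand. Capitals mark GAAA followed by NN and GAAA, the core of the interferon-stimulated response element, and GAGGAAGT, a form of the site of the myeloid factor PU.1, on either strand. The PU.1 letters were chosen after the called genes were seen.
Ctss, chr3:95526536-95526835, plus strand: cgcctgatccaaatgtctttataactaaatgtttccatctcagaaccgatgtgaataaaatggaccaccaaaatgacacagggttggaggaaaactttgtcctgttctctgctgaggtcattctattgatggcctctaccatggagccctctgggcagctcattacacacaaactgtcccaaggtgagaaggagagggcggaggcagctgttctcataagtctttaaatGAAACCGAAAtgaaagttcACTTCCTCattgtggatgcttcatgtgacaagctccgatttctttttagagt
B2m, chr2:122147437-122147736, plus strand: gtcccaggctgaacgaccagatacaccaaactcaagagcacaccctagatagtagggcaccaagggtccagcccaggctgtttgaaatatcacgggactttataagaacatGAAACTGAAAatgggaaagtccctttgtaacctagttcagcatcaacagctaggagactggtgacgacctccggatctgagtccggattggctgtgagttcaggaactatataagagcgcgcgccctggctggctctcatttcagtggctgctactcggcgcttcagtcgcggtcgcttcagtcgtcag
Bst2, chr8:71537423-71537722, minus strand: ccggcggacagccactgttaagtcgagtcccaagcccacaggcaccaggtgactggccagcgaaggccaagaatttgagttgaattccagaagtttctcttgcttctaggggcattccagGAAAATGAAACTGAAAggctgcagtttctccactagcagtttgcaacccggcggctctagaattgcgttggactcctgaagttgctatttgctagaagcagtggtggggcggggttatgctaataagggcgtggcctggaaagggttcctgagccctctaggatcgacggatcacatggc
C1qc, chr4:136892865-136893164, minus strand: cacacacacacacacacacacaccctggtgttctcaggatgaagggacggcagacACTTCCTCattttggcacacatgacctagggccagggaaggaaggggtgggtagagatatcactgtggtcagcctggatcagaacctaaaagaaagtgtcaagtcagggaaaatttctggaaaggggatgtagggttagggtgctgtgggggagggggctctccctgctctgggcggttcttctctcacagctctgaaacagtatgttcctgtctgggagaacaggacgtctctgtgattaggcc
Psme1, chr14:55578244-55578543, plus strand: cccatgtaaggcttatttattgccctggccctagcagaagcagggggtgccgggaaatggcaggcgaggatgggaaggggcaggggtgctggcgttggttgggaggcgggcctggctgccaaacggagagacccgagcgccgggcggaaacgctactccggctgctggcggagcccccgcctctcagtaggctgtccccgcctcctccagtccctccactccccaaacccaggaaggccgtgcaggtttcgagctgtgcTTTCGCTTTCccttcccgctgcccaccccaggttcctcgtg
In Ctss the interferon element lies at bases 230 to 239 and the PU.1 letters, on the opposite strand, at bases 249 to 256. The Bst2 promoter holds 2 overlapping interferon elements. Promoters of 12503 of the 17737 genes tested were matched, and any of a gene's starts counted. The interferon element was present in 16 of 162 matched lower genes (9.88%), in 1 of 110 higher genes (0.909%) and in 3.59% of all matched genes. GAGGAAGT was present in 11 of the lower genes (6.79%), in 0.909% of the higher and in 3.38% of all. The element TGANTCA, which AP-1 factors bind, was in 8.64% of lower, 9.09% of higher and 6.37% of all. TGACGTCA, the cyclic AMP element, was in 1.85%, 2.73% and 3.29%, TGATGNAA, an ATF4 element, in 4.94%, 3.64% and 2.82%, and the E-box CACGTG in 10.5%, 8.18% and 11.1%. GTTAAT followed by N and ATTA, the element of the liver factor HNF1, was in 0% of lower, 0.909% of higher and 0.08% of all. These are 1 higher gene, Gc, and 10 genes in all. Gc had 143 counts in ATG-GGN100dCT and 4 in ATG-GGC100, and passed the filter on low counts only through ATG-GGN100dCT, where it is high. These shares are descriptions of letters in these windows, with no test.

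Genes of cells at the brain's border were lower beside the microglial genes. Mrc1, the mannose receptor of perivascular and meningeal macrophages, stood at 0.590, 0.560, 0.670 and 0.690 FPKM against 1.46, 1.48, 1.69 and 1.43 FPKM, without overlap (-1.27 ± 0.18, adjusted p = 0.000503). Pf4, a chemokine of these macrophages and of platelets, was lower by -2.63 ± 0.51 (adjusted p = 0.00708) and passed the filter on low counts only through ATG-GGC100. With Cd209f, a lectin gene whose call was lost in 9 of 16 alternatives, 3 of 9 border macrophage genes were lower, and the median was -1.15. Of 12 meningeal fibroblast genes 2 were lower as well, and 1 with a filter of at least 1 FPKM in 4 libraries. Ogn, a small matrix proteoglycan, stood at 2.25, 4.14, 2.72 and 3.55 FPKM against 9.32, 10.1, 8.52 and 11.4 FPKM (-1.64 ± 0.27, adjusted p = 0.00504). Igf2, a growth factor of meninges and choroid plexus, averaged 0.207 ± 0.0918 against 0.657 ± 0.119 FPKM (-1.65 ± 0.32, adjusted p = 0.00829). All 12 meningeal genes had negative log2 fold changes, with a median of -0.55. Their summed level was 559.7 to 914 CPM in ATG-GGN100dCT and 912 to 1388 CPM in ATG-GGC100. The part of attached meninges in the border macrophage result was not tested. Choroid plexus genes had no call of 8 (median 0.05). Thbs1, a matrix glycoprotein, was lower by -1.84 ± 0.33 (adjusted p = 0.00504), and Fam180a by -1.47 ± 0.27 (adjusted p = 0.00484).

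**Figure D3:**
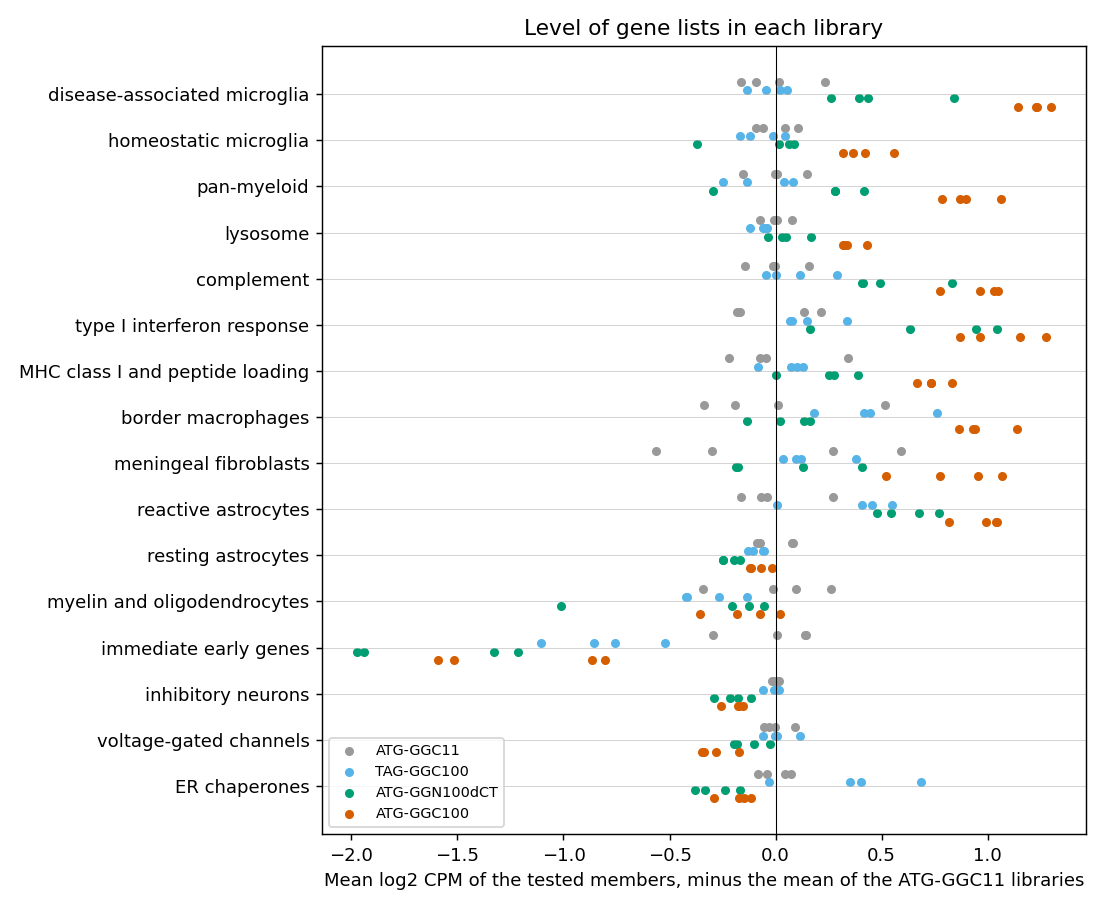
Points are single libraries: the mean log2 CPM of the tested members of 16 gene lists, minus the mean of the ATG-GGC11 libraries. For the disease-associated list ATG-GGC100 lies at 1.14 to 1.30 and ATG-GGN100dCT at 0.26 to 0.84, and for the pan-myeloid list the lowest ATG-GGN100dCT library, replicate 3, lies at -0.30.

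Astrocyte genes split. Gfap (ENSMUSG00000020932; chromosome 11, 102778162 to 102791738, minus strand), the filament protein of reactive astrocytes, stood at 79.3, 46.6, 122 and 140 FPKM in ATG-GGN100dCT and at 175, 225, 191 and 180 FPKM in ATG-GGC100. The groups did not overlap, but the difference did not pass (-0.997 ± 0.274, adjusted p = 0.0853); it passed with DESeq2 and with limma on log2 FPKM. Its means in ATG-GGC11 and TAG-GGC100 were 42.8 and 40.0 FPKM. Serpina3n, a secreted serpin, overlapped at 13.9, 11.6, 20.4 and 27.1 FPKM against 18.7, 37.3, 37.6 and 36.3 FPKM (adjusted p = 0.126). Of 28 reactive astrocyte genes only C4b passed, and 23 were negative, with a median of -0.32. Among 17 resting astrocyte genes 4 were called lower, against 1.19% of all genes tested. Aqp4, the water channel of astrocyte endfeet, stood at 20.9, 17.4, 19.9 and 22.7 FPKM against 32.3, 26.8, 33.0 and 35.0 FPKM (-0.65 ± 0.09, adjusted p = 0.000538). Gja1, the gap junction protein connexin 43, averaged 17.0 ± 0.903 against 21.9 ± 1.40 FPKM (-0.37 ± 0.06, adjusted p = 0.00173), and Mlc1, a partner of aquaporin at the endfeet, 47.0 ± 3.99 against 59.1 ± 3.07 FPKM (-0.33 ± 0.06, adjusted p = 0.00484). Slc1a3, a glutamate transporter, was lower by -0.30 ± 0.07 (adjusted p = 0.0228), a call lost in 6 of 18 alternatives, whereas Slc1a2, the main one, overlapped (adjusted p = 0.783). For Gja1 and Mlc1 the ATG-GGC100 level was that of ATG-GGC11, at 21.0 and 56.9 FPKM, and ATG-GGN100dCT lay below it. The resting list's median was -0.09, with 12 of 17 members negative.

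Further lower astrocyte genes were picked after their values were seen, so their direction adds no support to the lists above. Slc14a1, a urea transporter, averaged 3.09 ± 0.882 against 5.73 ± 0.351 FPKM (-0.89 ± 0.15, adjusted p = 0.00338). Clu, the secreted chaperone clusterin, averaged 228 ± 17.5 against 315 ± 37.0 FPKM (-0.47 ± 0.08, adjusted p = 0.00216). S100b, a calcium-binding protein of astrocytes, averaged 64.6 ± 5.59 against 82.5 ± 3.15 FPKM (-0.35 ± 0.07, adjusted p = 0.0124). None of these overlapped between the groups.

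Few neuronal genes differed. Lhx6 (ENSMUSG00000026890; chromosome 2, 35971965 to 35995420, minus strand), a transcription factor of interneurons born in the medial ganglionic eminence, stood at 4.47, 4.69, 4.44 and 4.30 FPKM in ATG-GGN100dCT and at 3.19, 3.14, 3.02 and 2.46 FPKM in ATG-GGC100. The groups were well apart (0.60 ± 0.09, adjusted p = 0.000664), and ATG-GGN100dCT lay at the level of ATG-GGC11 (4.59 FPKM) and TAG-GGC100 (4.97 FPKM). The neuropeptide genes Crh and Cort, of corticotropin-releasing hormone and cortistatin, were lower in ATG-GGN100dCT. Crh stood at 4.60, 4.82, 2.80 and 3.43 FPKM against 9.63, 6.88, 11.1 and 9.30 FPKM (-1.24 ± 0.19, adjusted p = 0.000789). Cort averaged 2.95 ± 0.867 against 6.06 ± 1.63 FPKM (-1.04 ± 0.23, adjusted p = 0.023), a call lost without ATG-GGC100 replicate 1 or 3 or ATG-GGN100dCT replicate 3 or 4. The Cort call was also lost when only the 8 libraries compared were fitted. For Crh the ATG-GGC100 mean, 9.21 FPKM, was the highest of the 4 groups, while for Cort the order was ATG-GGC11 (9.04), TAG-GGC100 (8.36), ATG-GGC100 and ATG-GGN100dCT. The rest of the 20 inhibitory neuron genes did not pass, Gad1 (adjusted p = 0.873) and Pvalb (adjusted p = 0.744) among them. Scn8a, an axonal sodium channel, averaged 20.4 ± 1.00 against 16.7 ± 0.408 FPKM (0.29 ± 0.07, adjusted p = 0.0242). It was 1 of 2 higher calls among 21 voltage-gated channel genes, of which 18 were positive (median 0.14). The Scn8a call was lost in 5 of 18 alternatives, the omission of ATG-GGC100 replicate 1, 2 or 3 or ATG-GGN100dCT replicate 1 or 3.

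Neuronal identity and activity lists held almost no calls, against 2.05% of all genes tested. At that share, lists this short would hold few or none. No gene of the 17 pan-neuronal, 20 excitatory, 14 striatal, 20 presynaptic or 20 immediate early genes passed, and 1 of 21 glutamate and GABA receptor genes did, Gabra2 (-0.29 ± 0.07, adjusted p = 0.0354; lost in 7 of 18 alternatives). Rbfox3, the neuronal nuclear protein, stood at 49.9 to 55.2 FPKM against 46.3 to 49.3 FPKM (0.12 ± 0.05, adjusted p = 0.268). Fos, which neuronal activity induces, stood at 7.07, 7.89, 3.00 and 3.61 FPKM against 12.9, 5.56, 5.62 and 12.9 FPKM, with overlap (adjusted p = 0.343), below the 33.4 FPKM of ATG-GGC11. The immediate early list had a median of -0.46, with 17 of 20 members negative, against 8997 of the 17737 genes tested. Arc (adjusted p = 0.87) and the matrix gene Ccn1 (adjusted p = 0.943) overlapped between the groups.

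**Figure D4:**
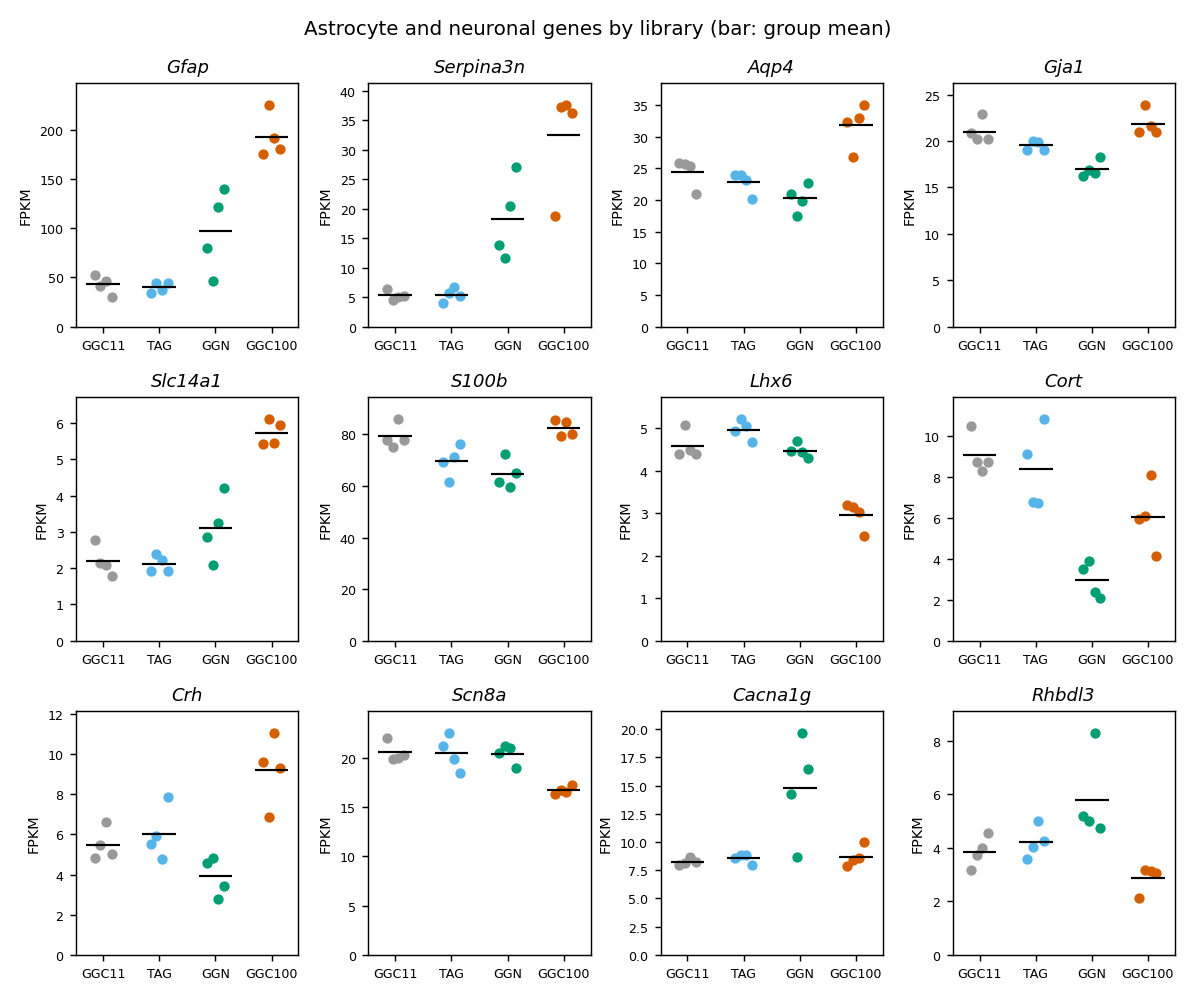
Points are single libraries and bars group means, in FPKM, for 12 astrocyte and neuronal genes, with replicates 1 to 4 from left to right. Lhx6 and Scn8a in ATG-GGN100dCT (GGN) sit with ATG-GGC11 and TAG-GGC100 above ATG-GGC100, while the Gfap mean of ATG-GGN100dCT lies between those of ATG-GGC100 and the other groups, with replicate 2, at 46.6 FPKM, among the ATG-GGC11 libraries.

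Proteostasis lists held almost no calls, where 2.05% of all genes tested were called. Lists this short would hold few or no calls at that share. None of 19 endoplasmic reticulum chaperone genes, 20 heat shock genes, 18 ubiquitin and autophagy adaptor genes, 26 proteasome genes or 39 cytosolic ribosomal protein genes passed, with medians of -0.08, -0.09, -0.05, -0.01 and -0.14. The members with negative log2 fold changes numbered 14, 16, 15, 15 and 38, respectively, against 8997 of the 17737 genes tested. Sqstm1, the autophagy receptor p62, averaged 163 ± 7.92 against 156 ± 6.67 FPKM (adjusted p = 0.65), and Ubb, a polyubiquitin gene, 276 ± 10.6 against 288 ± 9.50 FPKM (adjusted p = 0.66). Hspa5, the chaperone BiP, averaged 51.7 ± 6.86 against 55.2 ± 2.44 FPKM (adjusted p = 0.844). Of 21 ATF4-responsive genes, Phgdh of serine synthesis was lower (-0.41 ± 0.09, adjusted p = 0.0234; lost in 4 of 18 alternatives). Oxidative phosphorylation genes (31 nuclear and 13 mitochondrial), 20 cholesterol synthesis, 15 p53 target, 15 cell cycle, 25 splicing factor and 21 nuclear pore genes had no call. Nor did any of the 6 tested mouse orthologs of genes with disease-causing GGC repeats (median -0.05).

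Myelin, vascular and blood genes completed the cell types. No myelin gene of 16 passed: Mbp stood at 347, 310, 177 and 331 FPKM against 316, 263, 269 and 265 FPKM (adjusted p = 0.911). The precursor-associated genes Olig1 (-0.33 ± 0.08, adjusted p = 0.0376) and Cspg5 (-0.30 ± 0.07, adjusted p = 0.0277) were lower, both calls being lost without ATG-GGN100dCT replicate 3, among other alternatives. Of 15 endothelial genes, Mfsd2a, a lipid transporter of the blood-brain barrier, was higher (8.90 ± 2.31 against 5.06 ± 1.204 FPKM; 0.82 ± 0.19, adjusted p = 0.0374; lost in 6 of 18 alternatives, among them the omission of ATG-GGC100 replicate 1, 3 or 4 or ATG-GGN100dCT replicate 3). Hemoglobin genes stood lower in every ATG-GGN100dCT library without passing. Hba-a1 stood at 9.86, 8.23, 1.62 and 5.31 FPKM against 15.9, 15.6, 20.8 and 13.4 FPKM (-1.40 ± 0.42, adjusted p = 0.112), and Hbb-bs likewise did not overlap (adjusted p = 0.166). The part of blood left in the tissue in the myeloid results was not tested.

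Hepatocyte transcripts, from the main cells of the liver, were present in ATG-GGN100dCT and nearly absent from ATG-GGC100. Alb (ENSMUSG00000029368; chromosome 5, 90608756 to 90624461, plus strand), the gene of serum albumin, stood at 9.27, 10.8, 10.2 and 9.54 FPKM against 0, 0.03, 0 and 0 FPKM. That is 1462 counts against 1, a ratio of 1573 with an exact 95% counting interval of 282 to 62155. Serpina3k, a liver serpin, had 317 counts against 0 (at least 114-fold higher, taking 3 counts in the whole group as the floor). Ahsg, the serum protein fetuin A, had 142 against 0 and was at least 50.9-fold higher. Cyp4a14, a fatty acid hydroxylase gene of liver that is not on the hepatocyte list, had 239 counts against 0, at least 85.7-fold. Cyp2e1, an alcohol-metabolising enzyme, stood at 2.16, 2.25, 2.57 and 1.97 FPKM against 0.03, 0.03, 0.05 and 0.12 FPKM, or 305 counts against 8. Apoa1, the main protein of high-density lipoprotein, averaged 2.78 ± 0.422 against 0.128 ± 0.0896 FPKM, or 216 counts against 11. The urinary protein gene Mup3 averaged 4.01 ± 0.327 against 0.0575 ± 0.045 FPKM, or 270 counts against 4; the Mup genes, like the Serpina1 and Serpina3 genes, are near-identical copies that can share reads. Of 35 hepatocyte genes in the table, 29 stood higher in every ATG-GGN100dCT library than in any ATG-GGC100 library, and 11 had no count in ATG-GGC100. Of all 17737 genes tested, 3.56% stood higher in that way, but the 35 also include members that were not tested. In the tested set 20 of the 27 members were called higher, against 0.857% of all genes tested. Alb, Serpina3k, Ahsg, Cyp4a14, Cyp2e1, Apoa1 and Mup3 passed the filter only through ATG-GGN100dCT, where they are high. Mup7 and Mat1a did so too. The calls of these genes and the count of 20 members therefore support nothing. With the filter at 20 counts or more over the 12 other libraries, 6 hepatocyte genes and 119 genes in all were called higher. The summed list stood at 272 to 409 CPM against 339 to 421 CPM and was dominated by Trf, which brain cells also express (64.0 against 92.1 FPKM). The source of the hepatocyte transcripts and their part in the 132 higher calls outside the list, which include Cyp4a14 and the further liver genes Mup7 and Mat1a, were not tested.

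**Figure D5:**
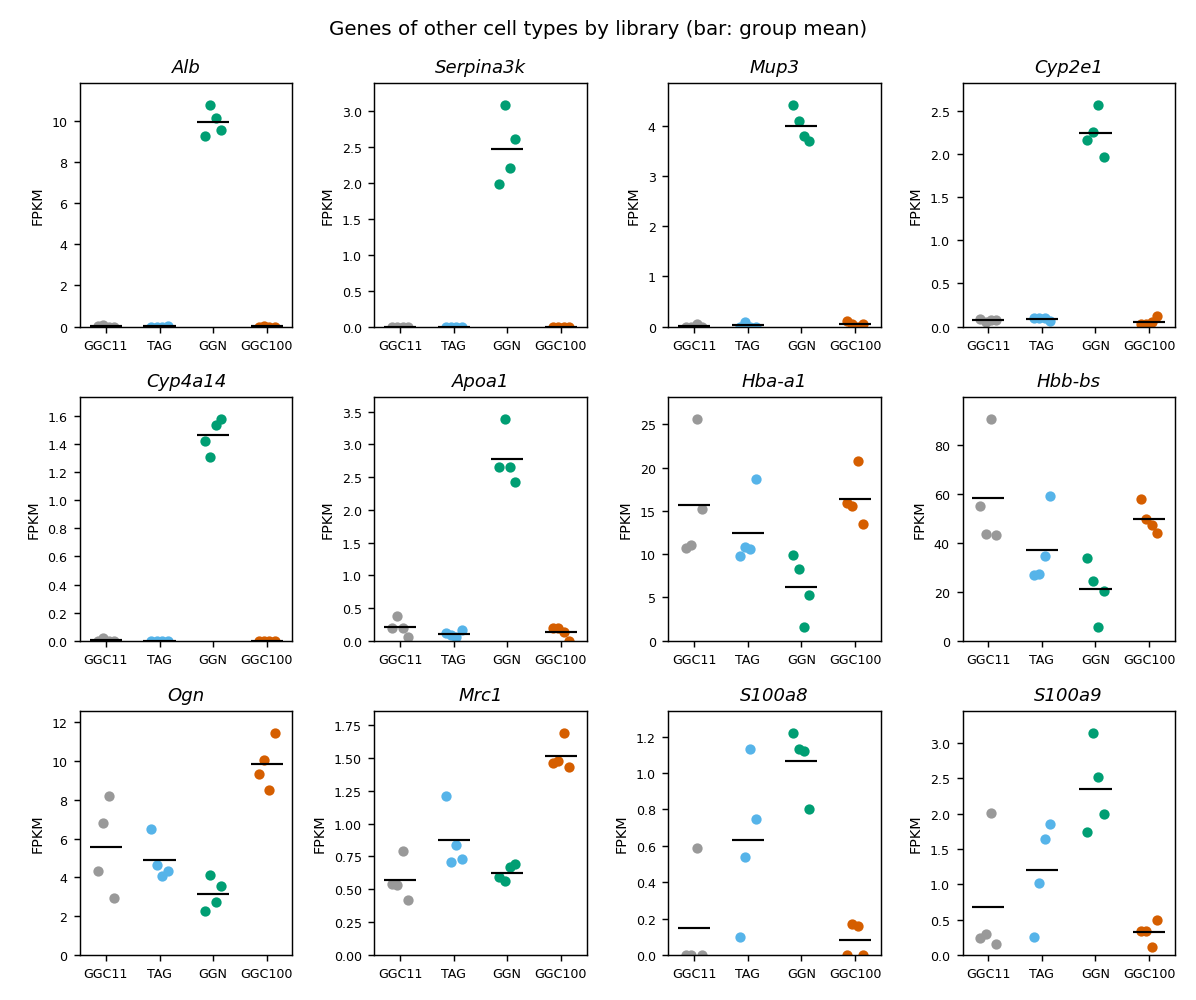
Points are single libraries and bars group means, in FPKM, for liver (Alb, Serpina3k, Mup3, Cyp2e1, Cyp4a14, Apoa1), red blood cell (Hba-a1, Hbb-bs), meningeal (Ogn), border macrophage (Mrc1) and neutrophil (S100a8, S100a9) genes, with replicates 1 to 4 from left to right. Alb lies at 9.27 to 10.8 FPKM in ATG-GGN100dCT (GGN) and at 0 to 0.03 FPKM in ATG-GGC100.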

How the data were processed

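RNA was extracted with Trizol, selected for poly(A), primed randomly and sequenced, per the labels' protocols, which name no strand-marking step. The authors deposited 1 table of read counts per gene and of FPKM for all 16 libraries. FastQC 0.10.1 and cutadapt 1.9.1, and the builds GRCm39 and mm10, are named in the submitters' processing notes. Which aligner, counter and annotation were used is not given in the sources used here. Deposited FPKM values followed from the counts, exonic lengths and library totals within 0.005. The 4 construct rows were left out of the tests but are part of the library totals given here, at most 0.00714% of a library.

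Counts of the 16 libraries entered 1 edgeR 4.0.16 quasi-likelihood fit (R 4.3.3; TMM scaling, filterByExpr with a minimum count of 10, 4 groups, no covariate), with Benjamini-Hochberg adjustment over all 17737 genes and a threshold of 0.05. The common biological coefficient of variation was 0.112. All adjusted p-values and standard errors are from this fit unless another tool is named. FPKM values are given as mean ± SD over 4 libraries. Groups not overlapping means that every library of one lies beyond every library of the other. The 8 libraries compared held 14368923 to 18244269 counts. Intervals and floors cover counting error only. Replicates of a group differed by more than sampling noise (chi-square over degrees of freedom of 5.36 to 22.0 in 12 pairs). The labels do not state separate animals; p-values then reflect only how far these libraries differ, which may be technical.

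Alternatives were DESeq2 1.42.0, limma 3.58.1 on log2(FPKM + 1) and log2(FPKM + 0.1), other scalings and filters, a fit of the 8 libraries alone, a replicate block, and the omission of each library. The fit was tested on simulated data with 50 genes changed at each fold. It recovered 50% of 1.5-fold, 70% of 2-fold and 88% of 3-fold and of 4-fold changes, with 10 false calls among 158. Genes were drawn independently, so no simulated library stood apart as ATG-GGN100dCT replicate 3 did. These rates therefore need not hold for the data. Members and gene lists were chosen with earlier results of these data known. Named genes were the 12 largest called changes in each direction with at least 1 FPKM and no overlap, up to 4 called members of each list, a set of markers named whether or not they passed, and genes said to be named after their values were seen. Results of some genes are not reported here.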

Additional observations from a re-analysis of the deposited data

Results flagged for a closer look

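In 281 sets of 4 libraries, 20 had a library separated from the other 3 by a share of the set's range above Dixon's 95% critical value, where chance gives about 1 in 20. In ATG-GGN100dCT, replicate 3 was the lowest for Pf4 (0.08 FPKM) and Bst2 (2.31 FPKM), and the highest for Kl (1.01 FPKM) and Rhbdl3 (8.28 FPKM). Replicate 2 of that group was the highest for Slc1a3 (64.36 FPKM), Ubb (291.89 FPKM) and Lrg1 (3.49 FPKM), and replicate 4 for C4b (21.01 FPKM).

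In ATG-GGC100, replicate 1 was the lowest for Itgax (0.42 FPKM), Serpina3n (18.67 FPKM), Ncf1 (2.85 FPKM) and Rhbdl3 (2.13 FPKM) and the highest for Mbp (315.78 FPKM) and Fabp1 (0.11 FPKM). Replicate 2 was the lowest for Neurod6 (23.61 FPKM) and the highest for Slc17a7 (256.83 FPKM) and Alb (0.03 FPKM). Replicate 3 was the highest for Ifit3 (11.46 FPKM), and replicate 4 for Bche (3.45 FPKM) and Serpina1e (0.04 FPKM). For Fabp1, Serpina1e and Alb the other 3 libraries were at 0.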

How the results depend on the processing

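The 363 calls (152 higher, 211 lower) became 695 (341 and 354) with DESeq2, 556 (265 higher) with no filter on low counts, and 181 (73 and 108) when only the 8 libraries compared were fitted. With limma on log2(FPKM + 0.1), 95 were higher. Leaving out 1 library gave 165 to 688 calls, 66 to 369 higher and 99 to 319 lower. The count stayed within 1.5 times with other scalings, with an FPKM filter, with limma on log2(FPKM + 1) and with the filter of 20 counts, which was chosen after seeing the data (323 calls). Every call shared with an alternative kept its direction. Same-numbered libraries did not pair: the correlations of their deviations were 0.01, -0.19, -0.21 and -0.05, and 0 of 8 libraries correlated best with their own number. The replicate block gave 265 calls (107 higher, 158 lower), 251 of them shared. Of 115 named genes called, 61 kept their call in every alternative that gave them an adjusted p, and none of 148 reversed. Not every gene had an adjusted p in all 18 alternatives: Alb had one in 17 and Ahsg in 16. Lists of few counts, the chemokines and hepatocyte genes among them, are limited by depth.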

Other observations

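Calcium channel genes, picked after their values were seen, held 3 of the higher calls among 25 voltage-gated calcium channel subunits tested, with a median log2 fold change of 0.15. Of all genes tested, 0.857% were called higher. Cacna2d2, an auxiliary subunit, stood at 5.85, 6.23, 9.11 and 6.43 FPKM in ATG-GGN100dCT and at 3.87, 4.19, 3.99 and 4.25 FPKM in ATG-GGC100, without overlap (0.76 ± 0.17, edgeR adjusted p = 0.0291). Cacna1g, a T-type channel, stood at 14.2, 8.71, 19.7 and 16.5 FPKM against 7.85, 8.39, 8.59 and 10.1 FPKM, with overlap (0.76 ± 0.17, adjusted p = 0.0338). Cacna1b, an N-type channel, passed with adjusted p = 0.0436. All 3 calls were lost without ATG-GGN100dCT replicate 3, among other alternatives.

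Of 24 imprinted genes tested, also picked afterwards, 4 were higher and 1, Igf2, lower, against 0.857% and 1.19% of all genes tested. Peg3 stood at 24.97, 27.6, 24.2 and 24.7 FPKM against 18.7, 21.2, 19.2 and 21.6 FPKM (0.33 ± 0.07, adjusted p = 0.013; lost without ATG-GGC100 replicate 1 or 3). The noncoding gene Meg3 stood at 194, 186, 172 and 168 FPKM against 134, 161, 137 and 126 FPKM (0.37 ± 0.08, adjusted p = 0.0132). The Meg3 call was lost without ATG-GGN100dCT replicate 1 and when only the 8 libraries compared were fitted. Rian and Snhg14 passed with adjusted p = 0.0323 and 0.0227, and each lost its call in 7 of 18 alternatives.

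The neutrophil genes S100a8 and S100a9 stood higher in every ATG-GGN100dCT library than in any ATG-GGC100 library, and both passed the filter on low counts only through ATG-GGN100dCT, where they are high. S100a9 stood at 1.74, 3.14, 2.52 and 2.00 FPKM against 0.34, 0.34, 0.11 and 0.50 FPKM (2.85 ± 0.65, adjusted p = 0.0242; lost in 4 of 18 alternatives). S100a8 had 47 counts against 4 (adjusted p = 0.0342), a call lost in 7 of 17 alternatives. S100a9 reached 2.01 FPKM in ATG-GGC11 and 1.86 FPKM in TAG-GGC100, overlapping ATG-GGN100dCT. S100a8 reached 1.13 FPKM in TAG-GGC100, again with overlap, and 0.59 FPKM in ATG-GGC11, below every ATG-GGN100dCT library. Rhbdl3, a rhomboid protease gene, was higher by 1.02 ± 0.18 (adjusted p = 0.00496), a call that no alternative removed.

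The median exonic length was 3970 bases over all genes tested, 3163 bases over the 211 lower genes and 6092.5 bases over the 132 higher genes outside the hepatocyte list.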
